A study of Mus musculus with 6 samples.

Results

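Aminophylline, a theophylline derivative that inhibits phosphodiesterases without selectivity for a subtype, was given to naturally aged mice, and the transcripts of 10 genes for calcium channels, calcium pumps and store sensors were followed in their oocytes. The genes were *Itpr1*, *Itpr2*, *Itpr3*, *Ryr2*, *Atp2a2*, *Trpm7*, *Trpv3*, *Cacna1h*, *Orai1* and *Stim1*. They were taken by symbol, and all 10 were among the 25631 genes of the deposited table. RNA was sequenced from oocytes of 14-month-old female ICR mice, punctured out of large antral follicles after an injection of equine chorionic gonadotropin. The aminophylline group (n = 3 libraries) drank 4 mM aminophylline for 1 week and then water only for 3 weeks. The control group (n = 3 libraries), labelled as aged and untreated, drank water alone. The number of mice and of oocytes behind a library is not given in the sources used here, so p-values measure only the spread between these libraries.

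Calcium oscillations in the cytoplasm start the development of the mammalian egg after sperm entry. The calcium leaves the endoplasmic reticulum through inositol 1,4,5-trisphosphate (IP3) receptors, SERCA pumps return it to the store, and channels of the plasma membrane replace what the egg exports. In many cells STIM proteins sense the filling of the store and open ORAI channels, while in mouse eggs the channels encoded by *Trpm7*, *Cacna1h* and *Trpv3* carry much of the studied influx. The type 1 IP3 receptor is the isoform usually described as the main release channel of the mouse egg. An oocyte fills its store while it grows and matures in the follicle, before these oscillations begin.

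The libraries held 14112341 to 33641283 reads, recovered from the FPKM values (fragments scaled by transcript length and library total). Control library 2 was the smallest. All 12 oocyte markers were listed, with a summed FPKM of 17150 to 24490 per library. The granulosa and cumulus list summed to 16.3 to 24.0, and the theca and stroma list to 2.90 to 5.25. In the granulosa list *Cyp19a1* (7.37 to 15.7) and *Nr5a2* (4.43 to 8.53) made up most of the sum, while *Foxl2* and *Fshr*, which define these cells, were at 0.197 or less and 0.270 or less. The macrophage list, with 13 of 14 genes listed, summed to 246 in control library 1 and to 83.6 to 104 in the other libraries. The excess was in *Lyz2* (66.4 against at most 0.573 elsewhere), *Fcer1g* (57.6 against at most 0.368), *Tyrobp* (20.3 against at most 0.308) and *C1qc* (14.8 against 0), whereas *C1qb*, which made up most of the sum in the other libraries (79.2 to 99.8), was lowest in control library 1 (72.3). *Adgre1*, a defining macrophage gene, had an FPKM of 0.506 in control library 1 and was at 0 in the other 5. The part of these cells in the results was not tested.

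The 3 upstream stretches shown here belong to *Orai1*, the gene with the highest level, *Itpr2*, the gene whose groups did not overlap, and *Trpm7*, a channel gene of the egg membrane. They lie directly before the RefSeq gene on GRCm38.p6, read 5′ to 3′ on the gene's strand, at chr5:123014824-123015073 (plus strand), chr6:146502259-146502473 (minus strand) and chr2:126876262-126876511 (minus strand). Capitals mark TGACG or its reverse complement CGTCA, the core of the cAMP response element, since phosphodiesterase inhibitors raise cAMP.
Orai1: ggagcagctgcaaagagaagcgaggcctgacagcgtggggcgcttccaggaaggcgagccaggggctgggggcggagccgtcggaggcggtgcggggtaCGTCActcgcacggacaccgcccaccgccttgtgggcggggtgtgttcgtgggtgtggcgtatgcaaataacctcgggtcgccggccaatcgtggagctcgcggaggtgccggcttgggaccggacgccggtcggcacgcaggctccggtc
Itpr2: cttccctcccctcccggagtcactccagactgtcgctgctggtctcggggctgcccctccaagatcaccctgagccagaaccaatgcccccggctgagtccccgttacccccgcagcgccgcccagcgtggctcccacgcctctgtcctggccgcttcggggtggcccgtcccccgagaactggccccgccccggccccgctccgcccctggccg
Trpm7: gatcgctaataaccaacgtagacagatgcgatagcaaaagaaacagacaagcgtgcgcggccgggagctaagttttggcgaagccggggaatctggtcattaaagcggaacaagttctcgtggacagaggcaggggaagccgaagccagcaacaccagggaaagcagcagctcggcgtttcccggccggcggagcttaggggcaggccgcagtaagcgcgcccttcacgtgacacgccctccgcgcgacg
The GC content of these stretches was 70.8% for *Orai1*, 74.0% for *Itpr2* and 60.4% for *Trpm7*. RefSeq windows of 250 bases were at hand for 7 of the 10 genes, without *Itpr1*, *Atp2a2* and *Cacna1h*. The windows of *Stim1* and *Itpr3* lay inside the RefSeq interval of the gene, and those of *Itpr2* and *Trpv3* reached into it. TGACG on either strand occurred in 2 of the 7 windows, those of *Orai1* and *Stim1*, and in 17.8% of all 32851 windows. The complete element TGACGTCA, which contains TGACG on both strands, occurred in 0 of the 7 windows and in 1.55% of all windows. A match describes letters only and is not a site of binding.

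In these oocytes the 10 genes spanned a wide range of transcript levels, and the upper and lower genes kept apart in every library. *Orai1* was highest, with a mean FPKM of 51.1 over the 6 libraries, followed by *Atp2a2* (24.6), *Itpr2* (17.0), *Itpr1* (2.63) and *Trpm7* (2.05). *Cacna1h* (0.593), *Trpv3* (0.465), *Ryr2* (0.249), *Stim1* (0.223) and *Itpr3* (0.105) stayed under an FPKM of 1 in every library. *Orai1* thus lay above 93.7% of the listed genes by mean FPKM, and *Itpr3* above 36.7%. Some neighbours in this order were not separated. *Atp2a2* exceeded *Itpr2* in 4 of 6 libraries, *Ryr2* exceeded *Stim1* in 4 of 6, and *Cacna1h* exceeded *Trpv3* in 5 of 6. In contrast, the lowest *Itpr2* value lay above the highest *Itpr1* value, and the lowest *Trpm7* value lay above the highest *Cacna1h* value.

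**Figure D1:**
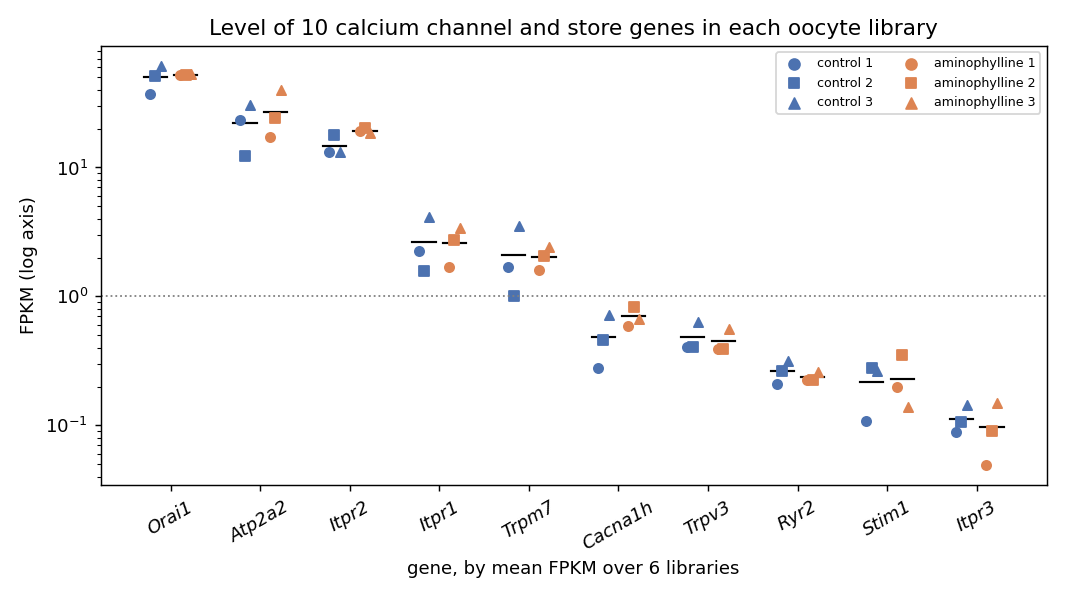
FPKM of the 10 genes (vertical log axis) in each of the 6 libraries, with genes ordered by mean FPKM on the horizontal axis; points are libraries, symbols give the replicate number, short lines are group means and the dotted line marks an FPKM of 1. *Orai1*, *Atp2a2* and *Itpr2* form the upper level, *Itpr1* and *Trpm7* the middle, and the remaining 5 genes lie under an FPKM of 1 in all libraries.

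Compared with control, none of the 10 genes passed the test in the aminophylline group. The limma test covered 10340 genes, those that reached an FPKM of 1 in 3 or more libraries, and 5 of the 10 genes were among them. Of these 5, 0 had an unadjusted p under 0.05 (limma), where 7.25% of all tested genes did, 4.41% with a higher and 2.84% with a lower level in the aminophylline group. With a fold over 1.5 as well the count was 0, at a background of 3.21%. The adjusted p was under 0.05 for 0 of the 5 genes and for 0% of all tested genes. With the replicate number as a block, 0 of the 5 genes had an unadjusted p under 0.05, at a background of 14.2%, and 0 an adjusted p under 0.05, at 0.455%. The median log2 fold change was 0.10 over the 5 genes and 0.10 over all tested genes. A limma voom fit on the recovered reads, which covered all 10 genes, gave 0 with an unadjusted p under 0.05, where 7.50% of its genes did.

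**Figure D2:**
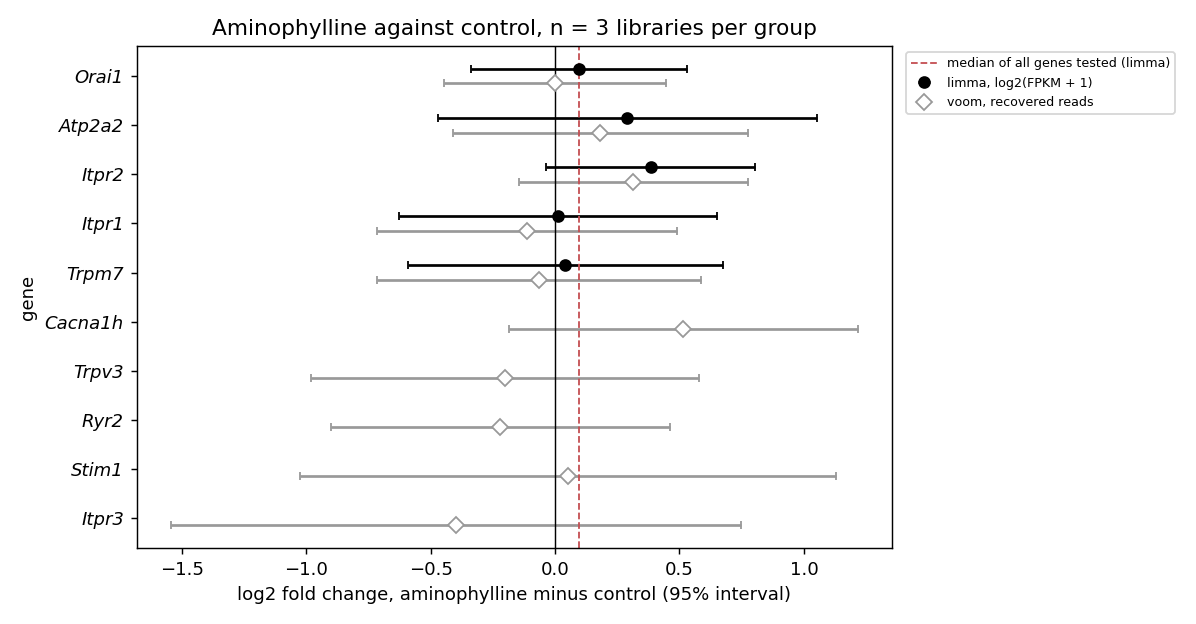
Log2 fold change of aminophylline minus control (horizontal axis) for each gene, with 95% intervals from limma on log2(FPKM + 1) (filled, 5 genes) and from limma voom on recovered reads (open, 10 genes); n = 3 libraries per group. All 15 intervals include 0, and the dashed line marks the median of all tested genes, 0.10.

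Among the IP3 receptors, which release calcium from the store, *Itpr2* (NCBI gene 16439, chr6:146108299-146502258, minus strand, GRCm38.p6) had the highest level. Its FPKM was 13.1, 17.7 and 13.2 in control libraries 1 to 3 and 19.3, 20.1 and 18.5 in aminophylline libraries 1 to 3, from 3177 to 7188 reads. All 3 aminophylline values lay above all 3 control values, and control library 2 was the control nearest to them. The control mean was 14.7 ± 2.64 and the aminophylline mean 19.3 ± 0.813 (SD, n = 3 each). On the log2 scale the difference was 0.39 (standard error 0.191, 95% interval -0.03 to 0.81, limma unadjusted p = 0.0684, adjusted p = 0.688), and the exact permutation p was 0.1, the smallest that 3 against 3 libraries can give. *Itpr2* was the only one of the 5 tested genes without overlap between groups, where 12.5% of all tested genes had none and 7.51% had none with the higher level after aminophylline. Without control library 2, 15.6% of all tested genes had an unadjusted p under 0.05 (limma). The log2 fold change of *Itpr2* was then 0.52 (limma unadjusted p = 0.0150, adjusted p = 0.201). Without control library 1, where the macrophage list was highest, it was 0.32 (limma unadjusted p = 0.153). Without control library 3, where that list was not raised, it was also 0.32 (limma unadjusted p = 0.148).

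*Itpr1* (NCBI gene 16438, chr6:108213083-108551116, plus strand) encodes the type 1 receptor. Its FPKM was 2.24, 1.58 and 4.15 in control and 1.70, 2.72 and 3.41 in the aminophylline group, in the order of replicate numbers, from 238 to 1408 reads. The groups overlapped fully, with the lowest and the highest value both in control libraries. The log2 fold change was 0.0135 (95% interval -0.62 to 0.65, limma adjusted p = 0.992), and its sign turned when libraries were rescaled or centred. *Itpr3* (NCBI gene 16440, chr17:27057002-27122223, plus strand), the type 3 receptor gene, had an FPKM of 0.0887, 0.106 and 0.144 in control and 0.0491, 0.0904 and 0.150 in the aminophylline group. These values rest on 13 to 43 reads per library and overlap.

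Expressed per transcript length, *Itpr2* made up 75.4% to 91.7% of the summed FPKM of the IP3 receptor genes, *Itpr1* 8.08% to 23.7% and *Itpr3* 0.233% to 0.824%. The FPKM of *Itpr2* exceeded that of *Itpr1* in 6 of 6 libraries, by 3.18-fold in control library 3 and by 11.3-fold in aminophylline library 1. The *Itpr2* share was 83.9% ± 7.98 (SD, n = 3) in control and 87.8% ± 3.91 (SD, n = 3) after aminophylline (two-sided exact permutation p = 0.6). The transcript length behind the deposited values was 12700 bases for *Itpr2* and 10668 bases for *Itpr1*, while all GENCODE exons of *Itpr1* together span 18319 bases, so the ratio depends on the transcript model that the authors used.

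**Figure D3:**
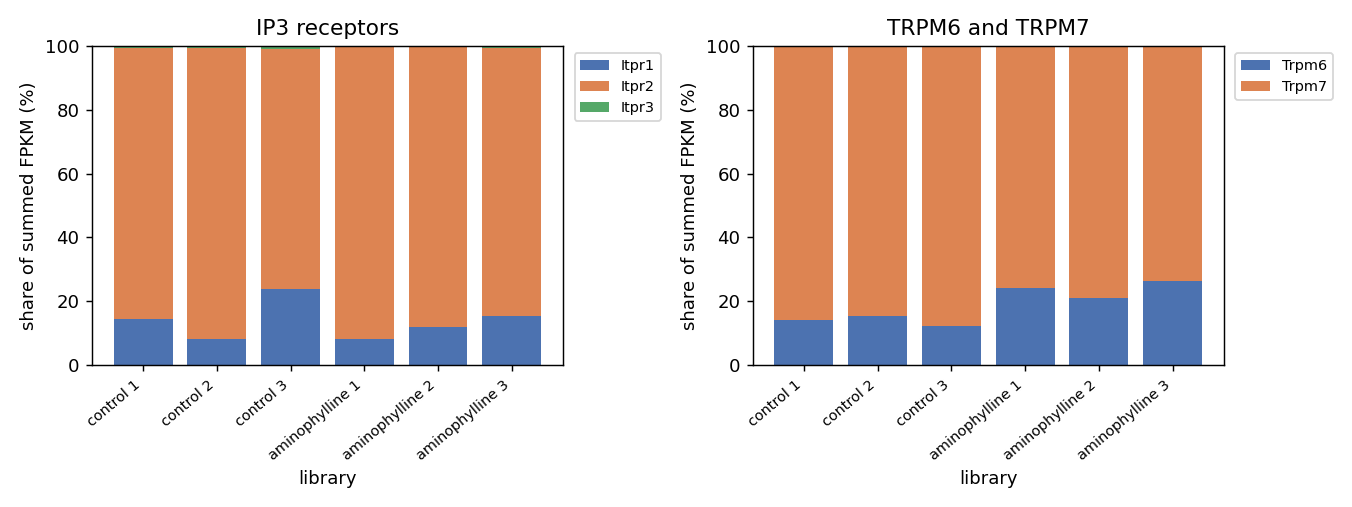
Share of the summed FPKM (%, vertical axis, from 0) held by each gene of 2 families in each of the 6 libraries, with IP3 receptor genes on the left and *Trpm6* and *Trpm7* on the right. *Itpr2* holds at least 75.4% of the left family in every library, and the *Trpm6* share is 12.3% to 15.4% in control and 20.9% to 26.3% in aminophylline libraries.

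*Ryr2* (NCBI gene 20191, chr13:11553099-12106945, minus strand) encodes a ryanodine receptor, the other main class of release channel and best known from heart muscle. Its FPKM was 0.209, 0.263 and 0.315 in control and 0.223, 0.224 and 0.260 in the aminophylline group, from 63 to 170 reads. All 3 aminophylline values lay within the control range. In voom on the reads the log2 fold change was -0.22 (95% interval -0.90 to 0.46, unadjusted p = 0.507). *Ryr3* had a mean FPKM of 0.364 (66 to 218 reads), above that of *Ryr2*, and *Ryr1* of 0.0305 (only 3 to 23 reads). Summed over these 3 genes, the *Ryr2* share was 42.7% ± 3.16 (SD, n = 3) in control and 35.1% ± 3.15 (SD, n = 3) after aminophylline, without overlap (exact permutation p = 0.1, the smallest possible).

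The SERCA pump gene *Atp2a2* (NCBI gene 11938, chr5:122453513-122502225, minus strand) accounted for at least 99.9% of the FPKM of the 3 SERCA genes in each library. Its FPKM was 23.4, 12.2 and 30.7 in control and 17.2, 24.2 and 39.7 in the aminophylline group, from 910 to 6437 reads. The groups overlapped, and library 3 was the highest of either group. The difference on the log2 scale was 0.29 (standard error 0.346, 95% interval -0.47 to 1.05, limma adjusted p = 0.823), which leaves folds from 0.722 to 2.07 within the interval. Its spread between libraries of a group (SD of 0.618 on the log2 scale) was larger than that of 98.3% of the tested genes, whose median was 0.266. Without control library 2 the log2 fold change was -0.0682, and without aminophylline library 3 it was -0.0187.

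Of the 3 influx channels studied in mouse eggs, *Trpm7* (NCBI gene 58800, chr2:126791558-126876261, minus strand), a divalent cation channel fused to a kinase, was the only one with enough FPKM to enter the limma test. Its FPKM was 1.71, 1.02 and 3.55 in control and 1.59, 2.05 and 2.42 in the aminophylline group. The aminophylline values lay inside the control range, which spanned 3.49-fold. The log2 fold change was 0.041 (95% interval -0.59 to 0.67, limma adjusted p = 0.978), with a sign that turned under median centring. *Cacna1h* (NCBI gene 58226, chr17:25374285-25436334, minus strand), the pore subunit of the T-type channel Cav3.2, had an FPKM of 0.277, 0.458 and 0.723 in control and 0.592, 0.835 and 0.674 in the aminophylline group. The means were 0.486 ± 0.224 and 0.700 ± 0.124 (SD, n = 3 each), but control library 3 exceeded 2 of the 3 aminophylline values. In voom the log2 fold change was 0.52 (95% interval -0.19 to 1.22, unadjusted p = 0.140, adjusted p = 0.761). An exon of *Tpsg1* on the other strand overlaps *Cacna1h* over 158 bases, and whether the authors' counting used strand is not given in the sources used here. Exons of *Itpr1*, *Itpr3*, *Atp2a2* and *Orai1* also overlap those of other annotated genes, so a few of their reads may belong to those genes. *Trpv3* (NCBI gene 246788, chr11:73267489-73300368, plus strand), a cation channel that strontium also passes, had an FPKM of 0.404, 0.407 and 0.630 in control and 0.389, 0.394 and 0.564 in the aminophylline group, from 33 to 115 reads. The voom log2 fold change of *Trpv3* was -0.20 (95% interval -0.98 to 0.58).

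For store-operated entry, *Orai1* (NCBI gene 109305, chr5:123015074-123030452, plus strand), the pore gene, had an FPKM of 36.9, 51.6 and 61.4 in control. In the aminophylline libraries it was 51.8, 52.4 and 52.8, a range of 1.02-fold inside a control range of 1.67-fold. On the log2 scale the difference was 0.10 (standard error 0.197, 95% interval -0.34 to 0.53, limma adjusted p = 0.907). The interval corresponds to folds from 0.791 to 1.44. *Stim1* (NCBI gene 20866, chr7:102261514-102437319, plus strand), a store sensor, had an FPKM of 0.108, 0.279 and 0.262 in control and 0.199, 0.349 and 0.139 in the aminophylline group, from only 24 to 57 reads. Its voom interval, -1.03 to 1.13, is wider than that of *Orai1* and does not exclude a change of 2-fold in either direction. The FPKM of *Orai1* was 150-fold to 380-fold that of *Stim1*. The paralog *Stim2* had the higher level, with 6.34 ± 0.302 in control and 5.09 ± 0.632 after aminophylline (SD, n = 3 each; no overlap, limma adjusted p = 0.750), and *Stim1* made up 1.59% to 5.97% of the FPKM of the pair. *Orai1* made up 97.8% to 98.9% of the FPKM of the 3 ORAI genes.

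The members of the same families were compared in the same way. Of 24 shares in 8 families, 4 did not overlap between groups. The levels of 12.5% of all tested genes did not, but shares are another measure and also include genes with too few reads for the test. No such background was computed for shares. The 4 shares lay in 2 families, the ryanodine receptor genes (*Ryr1* and *Ryr2*) and the pair of *Trpm6* and *Trpm7*. Shares of a family sum to 100%, so those of a pair are a single comparison, and both families were singled out after their values were seen. *Trpm6*, the paralog of *Trpm7*, had a mean FPKM of 0.322 ± 0.161 in control and 0.638 ± 0.197 after aminophylline (SD, n = 3 each). Its share of the pair was 13.98% ± 1.53 and 23.8% ± 2.72 (SD, n = 3 each), with an exact permutation p of 0.1. In voom the log2 fold change of *Trpm6* was 0.85 (unadjusted p = 0.0386, adjusted p = 0.642), from 20 to 203 reads per library. In the T-type family *Cacna1h* held 63.0% to 77.5% and *Cacna1i* most of the rest. Of the TRPV genes *Trpv2* was highest, with 87.3% to 94.0%, and *Trpv3* held 4.57% to 7.18%.

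Of the 5 tested genes, 3 varied together between libraries. *Itpr1*, *Atp2a2* and *Trpm7* were all lowest in control library 2, with aminophylline library 1 next, and all had their highest values in the third libraries of the groups. Over the 6 libraries, *Itpr1* and *Trpm7* had a Pearson r of 0.956 and a Spearman rho of 1 (exact permutation p = 0.00278 for each, adjusted p = 0.0278 over 10 pairs). For *Itpr1* and *Atp2a2* r was 0.892 (exact permutation p = 0.0139, adjusted p = 0.0694) and rho was 0.943 (exact permutation p = 0.0167, adjusted p = 0.0556). For *Atp2a2* and *Trpm7* r was 0.841 (exact permutation p = 0.0361, adjusted p = 0.120) and rho was 0.943 (exact permutation p = 0.0167, adjusted p = 0.0556). A further r left out the 2 libraries farthest from the median of the first gene of each pair. For the *Itpr1* pairs these were control libraries 2 and 3, and for *Atp2a2* and *Trpm7* control library 2 and aminophylline library 3. Control library 3, where *Trpm7* was highest, thus stayed in the last pair. This r was 0.974, 0.957 and 0.868 in the order of the pairs above. For the deviations from the group means over the 6 libraries r was 0.957, 0.923 and 0.860. Such likeness was common, since 943 of the 10339 other tested genes (9.12%) had an r over 0.9 to *Itpr1*. *Itpr2* had an r of -0.35 to *Itpr1* (exact permutation p = 0.461, adjusted p = 0.682). Its deviations from the group means had an r of -0.633 to those of *Itpr1*, -0.781 to *Atp2a2* and -0.735 to *Trpm7*, opposite in sign to the r among those 3 genes. *Orai1* had an r of 0.434 (exact permutation p = 0.386) and a rho of 0.829 (exact permutation p = 0.0583, adjusted p = 0.117) to *Itpr1*.

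The length of transcripts moved with these libraries. For the 2374 tested genes with transcripts of at least 5000 bases, the median deviation from the gene's mean on the log2(FPKM + 1) scale was -0.111, -0.236 and 0.226 in control libraries 1 to 3 and -0.155, 0.069 and 0.218 in aminophylline libraries 1 to 3. For the 2573 genes under 1500 bases it was -0.099, 0.092 and -0.184 and then 0.123, 0.088 and 0.004. The deviations of *Trpm7* (8995 bases) were -0.129, -0.553 and 0.621 and then -0.189, 0.042 and 0.208. *Trpm7* had the sign of the long class in 6 of 6 libraries, but also that of the 5393 genes between these lengths, whose medians were -0.097, -0.129 and 0.169 and then -0.065, 0.044 and 0.077. *Itpr1* (10668 bases) deviated by -0.121, -0.448 and 0.549 and then -0.383, 0.078 and 0.325, likewise with the sign of both classes in 6 of 6 libraries. *Atp2a2* (5294 bases) deviated by 0.026, -0.864 and 0.402 and then -0.398, 0.070 and 0.765, with the sign of the long class in all but control library 1. *Itpr2*, the longest transcript of the 5 genes, deviated by -0.331, 0.077 and -0.323 and then 0.192, 0.251 and 0.135. The part of transcript length in these patterns was not tested.

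**Figure D4:**
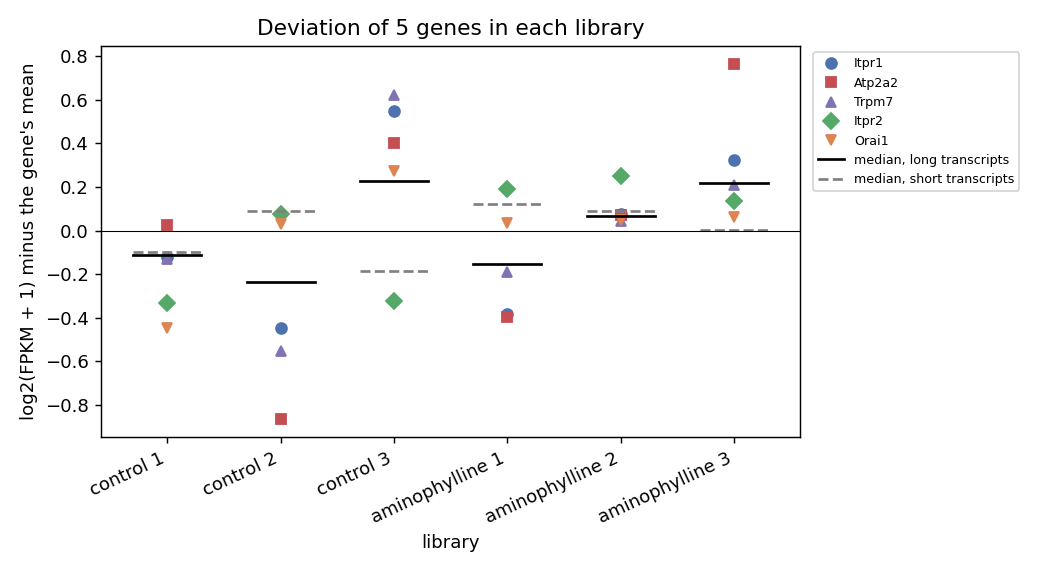
Deviation of log2(FPKM + 1) from each gene's mean over the 6 libraries (vertical axis) for the 5 tested genes, by library; lines give the median deviation of tested genes with transcripts of at least 5000 bases (long, solid) and under 1500 bases (short, dashed). *Itpr1*, *Atp2a2* and *Trpm7* lie low in control library 2 and high in control library 3, while *Itpr2* lies above 0 in all 3 aminophylline libraries.

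The genes whose levels followed *Orai1*, the highest of the 10, most closely over the 6 libraries included *Ptgis*, *Saraf*, *Cnpy3* and *Rab3ip*, with Pearson r of 0.9996, 0.996, 0.991 and 0.990 on the log2 scale. The SD of *Orai1* on this scale was 0.366 in control and 0.014 in the aminophylline group, so these r rest mostly on the control libraries. Of 10339 other tested genes, 242 had an r over 0.9, and the libraries share depth and preparation, so the values are a description.

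Beyond these 10 genes, 137 other genes of calcium transport and signalling were read from the same fit. The table listed 125 of them and 62 were tested. An unadjusted p under 0.05 (limma) was found for 5 (1 higher, 4 lower), or 8.06%, against 7.25% of all tested genes, and 0 had an adjusted p under 0.05. With the replicate block the count was 10 with an unadjusted p under 0.05, at a background of 14.2%, and 0 with an adjusted p. Without control library 1 it was 0, at a background of 3.52%. The median log2 fold change of the 62 genes was 0.02. Groups did not overlap for 2 of the 62 with a higher and 5 with a lower level after aminophylline. Of all tested genes, 12.5% had no overlap in either direction. In the deposited KEGG annotation the calcium signaling pathway held 8 of the 10 genes, without *Trpm7* and *Trpv3*. Of its 60 tested genes, 1 was higher and 3 were lower at an unadjusted p under 0.05 (limma), or 6.67%.

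The gene with the nominally higher level was *Itprip*, whose protein interacts with IP3 receptors. Its mean FPKM was 0.981 ± 0.218 in control and 1.78 ± 0.386 in the aminophylline group (SD, n = 3 each, log2 fold change 0.49, limma adjusted p = 0.682). *Itprip* reached an FPKM of 1 in all 3 aminophylline libraries but in control only in library 3 (1.23). It thus passed the filter through the group where it was higher. *Mcu*, the pore of the mitochondrial calcium uniporter, had an FPKM of 20.6, 18.95 and 22.7 in control and 14.1, 17.1 and 14.4 in the aminophylline group. These groups did not overlap (log2 fold change -0.42, limma unadjusted p = 0.0401, adjusted p = 0.682). *Erp44*, a chaperone of the store lumen that binds the type 1 IP3 receptor, had means of 30.01 ± 6.92 and 19.8 ± 2.74 (SD, n = 3 each; log2 fold change -0.56, limma adjusted p = 0.682). For *Calb1*, a cytosolic calcium buffer, the log2 fold change was -0.59 with control library 1 highest (9.67). For the calcium sensor gene *S100a1* it was -0.70, on at most 29 reads in a library. *S100a1* reached an FPKM of 1 only in control libraries 1 and 2 (1.40 and 1.84) and aminophylline library 2 (1.18). These are the fewest libraries that the filter allows.

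The most abundant gene of each role had groups that overlapped, except *Tmbim6*, a gene of the store membrane linked to calcium leak. Among all tested genes, 12.5% had no overlap. The FPKM of *Tmbim6* was 164, 192 and 161 in control and 150, 149 and 142 in the aminophylline group (log2 fold change -0.22, limma adjusted p = 0.728). The log2 fold change was 0.33 for the export pump gene *Atp2b1*, 0.11 for the secretory pathway pump gene *Atp2c1*, 0.04 for *Saraf*, an inhibitor of store-operated entry, and 0.09 for *Trpv2*. It was 0.04 for the channel subunit gene *Cacnb2*, -0.12 for the mitochondrial channel gene *Vdac3*, -0.09 for the receptor partner *Fkbp1a*, -0.33 for the store protein gene *Rcn2* and -0.13 for the calmodulin gene *Calm2*. The limma adjusted p-values of these 9 genes ranged from 0.735 to 0.969.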

How the data were processed

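Oocyte RNA was sequenced in 3 control and 3 aminophylline libraries, grouped by their labels. The authors deposited FPKM values per gene (reads divided by transcript length and library total, with no scaling between libraries). The submitters' notes name the build GRCm38 (mm10). The aligner, the counter and the annotation are not given in the sources used here. Reads were recovered from the FPKM values with Python 3.11.15: 100% of 120146 values checked were whole within 0.001 reads. Floors and intervals cover counting error or library spread only.

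The test was limma 3.58.1 (R 4.3.3) with a variance trend on log2(FPKM + 1), two-sided, on genes that reached an FPKM of 1 in 3 or more libraries, with Benjamini-Hochberg adjustment over all of them. Fold changes on this scale understate those of low genes. Limma voom on recovered reads (at least 10 in at least 3 libraries) was added after the values were seen. Shares, ratios and correlations were tested by exact permutation in scipy 1.17.1. After subtraction of group means, libraries sharing a number correlated at 0.138, 0.140 and 0.552, so the numbers were also fitted as a block; control library 2 correlated more with aminophylline library 1 (0.423). The members and gene lists were chosen with earlier results of these data known. Named were all 10 members, listed calcium genes with an unadjusted p under 0.05 or the highest mean FPKM in their role, and the 5 genes most correlated with the highest member, of which 1 is not reported here. The code was tested on simulated reads. Alternatives were another pseudocount and filters, TPM, median centring, an unmoderated model and leaving out each library.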

Additional observations from a re-analysis of the deposited data

How the results depend on the processing

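The count of the 10 genes with an unadjusted p under 0.05 was 0. It became 1 (*Itpr2*) with no filter on low values, at a background of 5.48% of all tested genes. It was also 1 with a linear model lacking moderation (background 6.55%) and without control library 2 (background 15.6%). The range over the libraries left out was 0 to 1. No adjusted p of the 10 genes was under 0.05 in any of these fits, the replicate block and both voom fits included. Over all genes the count with an unadjusted p under 0.05 was 750. It was 1404 with no filter, 1467 with the replicate block, 1159 with voom on recovered reads, 1832 with voom and the block, and 316 to 1593 when single libraries were left out. For the other calcium genes it was 5 (7.25%), where brackets give the share of all tested genes in the same fit. It was 2 under the filter on a mean FPKM of 5 (8.92%) and 3 after rescaling to TPM (5.55%). It was 10 with the replicate block (14.2%), 10 with voom (7.50%) and 12 with voom and the block (11.8%). With single libraries left out it ranged from 0 without control library 1 (3.52%) to 9 without control library 3 (14.2%). The shares of all tested genes in these fits ranged from 3.16% to 15.6%. The number of other calcium genes tested differed between fits with different filters. With the replicate block no call among the 10 genes changed. Of the genes with an unadjusted p under 0.05, 60.8% were higher with the values as deposited, 49.1% in TPM, 35.9% after median centring and 44.0% with voom.

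Signs near 0 turned. *Itpr1* had a log2 fold change of -0.0185 in TPM, -0.0684 after median centring, -0.1139 with voom and -0.1101 with voom and the block, *Trpm7* of -0.0411 after median centring, -0.0648 with voom and -0.0855 with voom and the block, and *Orai1* of -0.0005 and -0.0044 in the voom fits. With single libraries left out the range was -0.2071 to 0.2913 for *Itpr1*, -0.2254 to 0.3614 for *Trpm7*, -0.0682 to 0.5645 for *Atp2a2* and -0.1036 to 0.2566 for *Orai1*. The cause was not tested. *Itpr2* stayed positive in all alternatives (0.30 to 0.52). Its unadjusted p was under 0.05 only in the fits named above. It was 0.0996 in TPM and 0.186 after median centring (limma), and 0.169 with limma voom. The 5 genes under an FPKM of 1 rest on 13 to 249 reads per library, which limits what can be detected.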
